A study of Homo sapiens with 39 samples.

Results

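AZD9496 and fulvestrant were set against each other in HCC1428-LTED, a human breast cancer cell line kept for a long time without estrogen. The comparison used 12 of the 39 RNA-seq libraries, 6 per ligand. AZD9496 was given at 30 nM in 3 libraries and at 300 nM in 3, and fulvestrant likewise. A further 3 libraries had the vehicle, DMSO. All of these cells grew in IMEM with 5% charcoal-stripped serum, which holds little steroid hormone, and all were harvested after 24 hours of treatment. The submitters' text calls the treatments estrogen receptor degraders and speaks of duplicates, whereas the labels give 3 libraries per group. No label says that the replicates came from separate cultures, so the p-values measure the spread between these libraries, which may be technical. Levels are TPM, a transcript abundance corrected for gene length and scaled to the same total in every library, so a level says nothing of cell number, and fewer cells of a kind cannot be told apart from less RNA per cell.

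Estrogen receptor alpha, the product of ESR1, is a transcription factor that binds DNA at estrogen response elements when it carries a ligand and recruits coactivators or corepressors. In luminal breast cancer cells it drives secreted and signalling proteins as well as cyclin D1, and through cyclin D1 and MYC it brings cells into S phase, where E2F factors switch on the genes of DNA synthesis. Fulvestrant is a steroidal antagonist used in the clinic that blocks the receptor and lowers its protein. AZD9496 is an oral compound of the same intended action. Receptor protein was not measured in these libraries.

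Most estrogen-induced genes, genes of DNA replication and histone genes tested were higher with AZD9496 than with fulvestrant, and 8 of 17 estrogen-repressed genes were lower. The gene lists were chosen with earlier results of these data known, so their counts are not independent of these data. Across 14375 genes with a mean of at least 1 TPM, 1374 differed between the ligands with doses pooled (9.56% of genes tested), of which 1067 were higher with AZD9496 (7.42%) and 307 were lower (2.14%). A gene was called where limma's adjusted p, by the Benjamini-Hochberg method over all genes tested, was below 0.05. Differences are log2(TPM + 1) with AZD9496 minus fulvestrant, which understates the change of genes with low TPM, and errors on levels are SD over 6 libraries per ligand unless stated. Of the called genes 138 differed at least 2-fold on this scale, 116 of them higher and 22 lower. The 6 libraries of one ligand did not overlap the 6 of the other for 912 genes (6.34% of genes tested).

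The split into higher and lower depended on the scale. Median-of-ratios scaling gave 1323 calls, 780 higher and 543 lower, so that 59.0% were higher against 77.7% on the deposited TPM. Rescaling to protein-coding genes alone, an alternative chosen after seeing the data, moved the median difference of those genes by 0.11. It gave 1185 calls over 11100 genes tested, 543 of them higher (45.8%) and 642 lower. List counts given below on these 2 scales are to be read beside these counts, not beside the shares on the deposited TPM. On the deposited TPM, 984 protein-coding genes were called higher and 195 lower. Under all 3 scales 731 protein-coding genes were called in 1 direction, 536 higher and 195 lower. Genes of other types could not enter this count, because the last scale leaves them out. Protein-coding genes held 57.5 to 70.4% of TPM in AZD9496 libraries and 57.1 to 62.3% in fulvestrant libraries, and the part of this in the split was not tested.

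**Figure D1:**
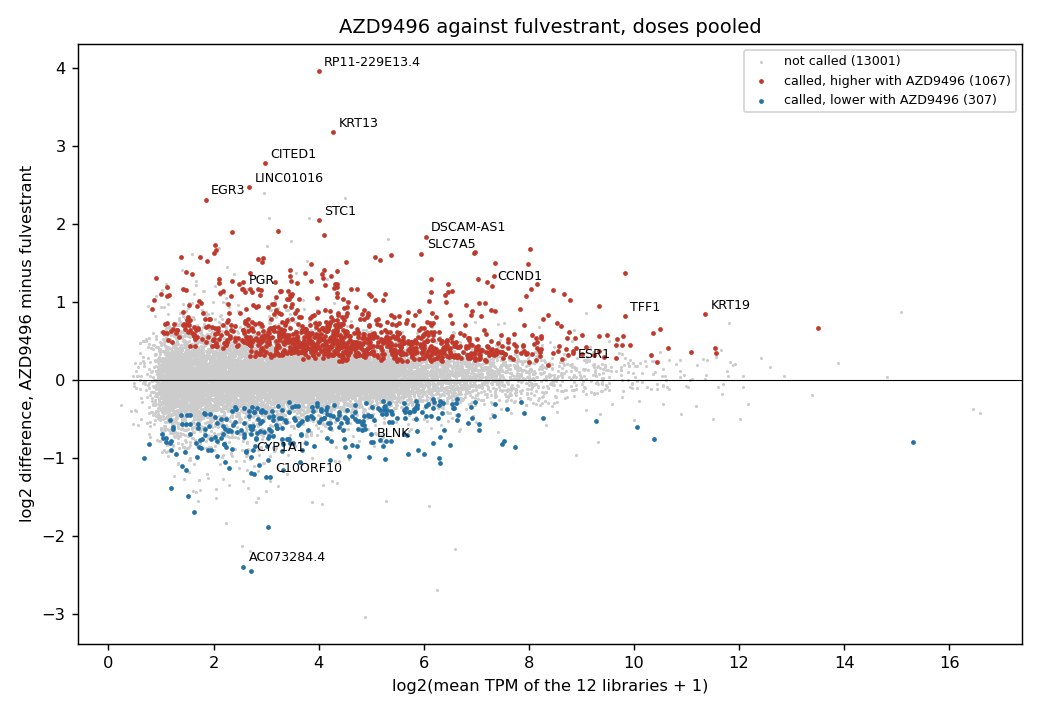
Log2 difference (AZD9496 minus fulvestrant, vertical axis) of each of the 14375 genes against the log2 of its mean TPM over the 12 libraries plus 1; red points are the 1067 called higher with AZD9496, blue points the 307 called lower. Estrogen-induced genes such as KRT13, CITED1, STC1 and SLC7A5 stand at the top, ESR1 lies near 0, and the highest point, an unannotated transcript with an RP11 clone name, is listed at 0 in all 6 fulvestrant libraries and runs between 0 and 96.5 TPM in AZD9496 libraries.

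ESR1, which encodes the receptor that both ligands bind, was not called. It had 409.6, 501 and 567.9 TPM as lowest, median and highest value in AZD9496 libraries, against 348, 434 and 471 TPM in fulvestrant libraries. The libraries overlapped, and the difference of 0.21 had a 95% interval of -0.02 to 0.43 (limma, adjusted p = 0.232). DMSO libraries lay between 409 and 459 TPM. Of the 17 coregulators of nuclear receptors that were tested none was called, beside 9.56% called over all genes tested. Their median difference was -0.01, and the members ran between -0.65 and 0.67. TRPS1, a GATA-type repressor, differed by -0.12 (interval -0.30 to 0.06), and with protein-coding genes alone it was called lower (-0.24, adjusted p = 0.0398). On that scale 2 coregulators were lower and none was higher, and after median-of-ratios scaling 1 was lower. Over all genes tested, 642 of 11100 and 543 of 14375 were lower on these 2 scales.

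Genes that estrogen induces made up the list with the highest median. Because the list was chosen with earlier results of these data known, its counts and median only describe its members. Of 46 listed genes 39 were tested, and 30 were higher with AZD9496, 1 was lower and 8 were not called, beside 7.42% higher and 2.14% lower over all genes tested. Their median difference was 0.89, beside 0.05 over all genes tested. Median-of-ratios scaling left 29 higher and 1 lower, and protein-coding genes alone 26 higher and 1 lower of 37. The mean of log2(TPM + 1) over the 39 members was 5.19 in AZD9496 libraries, 4.16 in fulvestrant libraries and 5.76 in DMSO libraries.

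The textbook targets of the receptor fell below vehicle under both ligands and further under fulvestrant. PGR, the progesterone receptor (GRCh38 chr11:101029624-101130524), had a lowest, median and highest value of 5.95, 7.07 and 9.27 TPM in AZD9496 libraries, against 2.004, 2.58 and 3.56 TPM in fulvestrant libraries and 29.2, 31.3 and 47.0 TPM in DMSO libraries. The 3 groups did not overlap, and the ligands differed by 1.16 ± 0.13 (SE, limma, adjusted p = 0.000153). GREB1, a cofactor of the receptor, averaged 5.09 ± 1.02 TPM with AZD9496, 1.46 ± 0.23 TPM with fulvestrant and 19.7 ± 1.59 TPM with DMSO (difference between ligands 1.30, adjusted p = 9.87e-05). TFF1, a secreted trefoil peptide, averaged 1149 ± 65.3 TPM with AZD9496, 659 ± 101 TPM with fulvestrant and 2906 ± 608 TPM with DMSO (difference 0.81, adjusted p = 0.000274). EGR3, an immediate early zinc finger factor, lay between 3.69 and 5.89 TPM in AZD9496 libraries, between 0 and 0.54 TPM in fulvestrant libraries and between 20.3 and 29.7 TPM in DMSO libraries. MYC, which drives growth and ribosome production, differed by 0.45, with 30.2 ± 2.86 TPM under AZD9496, 21.8 ± 2.40 TPM under fulvestrant and 66.0 ± 2.47 TPM under DMSO (limma, adjusted p = 0.00898).

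IL20, a cytokine of the interleukin-10 family, was the member furthest below vehicle in both ligands among those named here, by the difference of log2(TPM + 1). Its lowest, median and highest values were 5.65, 6.74 and 8.77 TPM in AZD9496 libraries, 0.347, 1.27 and 1.82 TPM in fulvestrant libraries and 66.6, 67.4 and 68.5 TPM in DMSO libraries. ID4, an inhibitor of basic helix-loop-helix factors, followed the same order, with 5.29 ± 1.09 TPM under AZD9496, 0.893 ± 0.318 TPM under fulvestrant and 13.8 ± 0.227 TPM under DMSO.

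**Figure D2:**
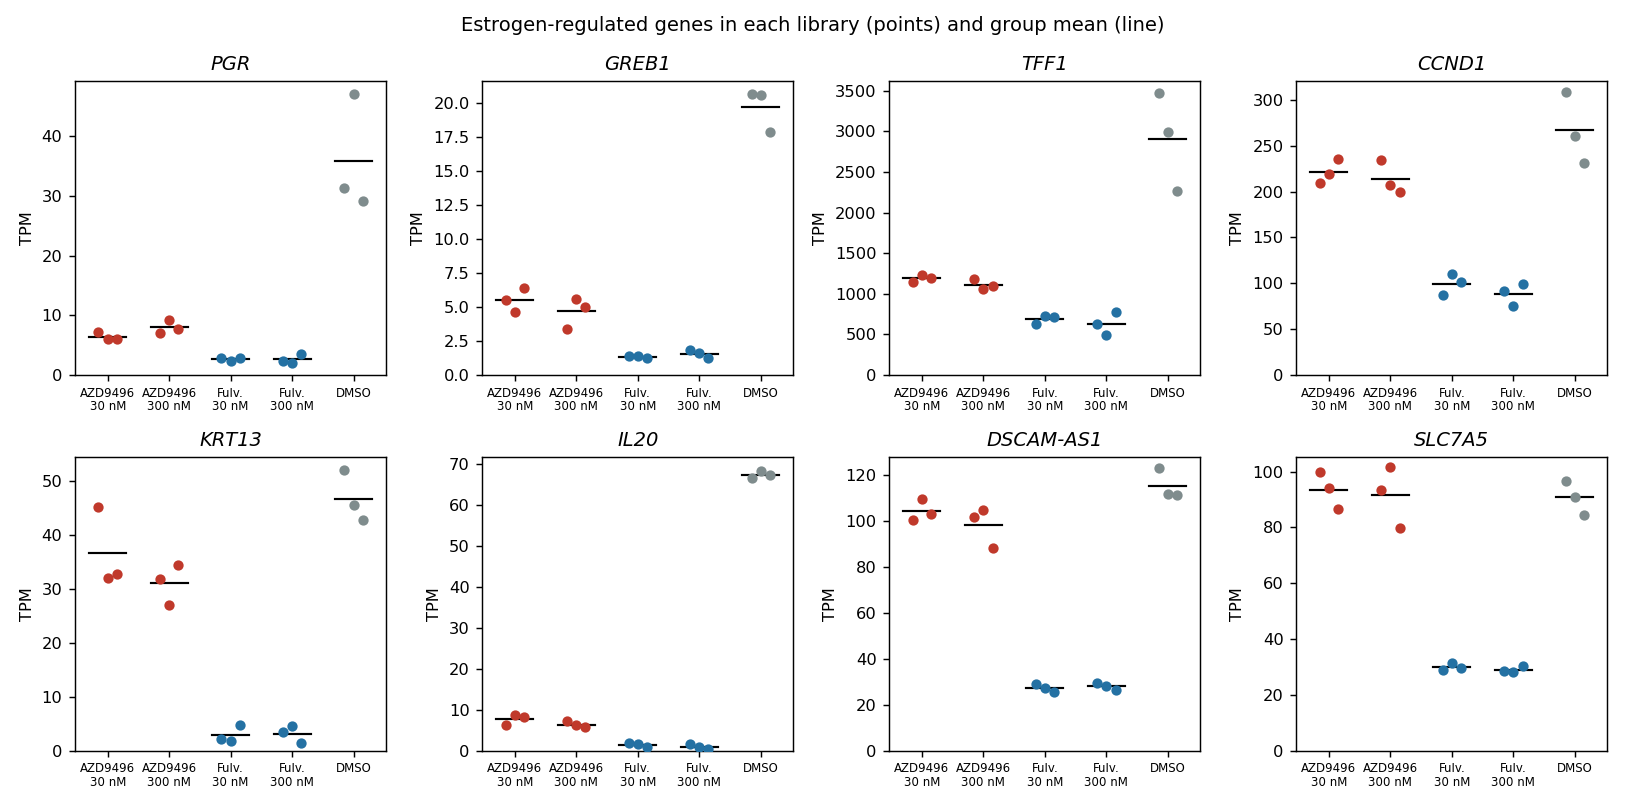
TPM (vertical axis, from 0) of 8 genes in every library, with points for libraries and a line for the mean of the 3 libraries of a group; AZD9496 is red, fulvestrant blue and DMSO grey. In each panel the 6 AZD9496 libraries lie above the 6 fulvestrant libraries, and in the panels of DSCAM-AS1 and SLC7A5 the AZD9496 libraries lie near or within the range of the DMSO libraries.

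A second set of estrogen-induced genes stood near the vehicle level under AZD9496 and below it under fulvestrant. SLC7A5 (GRCh38 chr16:87830023-87869488), the catalytic subunit of the LAT1 transporter of leucine and other neutral amino acids, had 79.7, 93.7 and 101.6 TPM as lowest, median and highest value in AZD9496 libraries, against 28.1, 29.2 and 31.5 TPM in fulvestrant libraries. The DMSO libraries had 84.5, 91.0 and 96.8 TPM, within the AZD9496 range. The ligands differed by 1.62 ± 0.07 (SE, limma, adjusted p = 1.88e-07), AZD9496 minus DMSO was 0.02 with a 95% interval of -0.17 to 0.22, and fulvestrant minus DMSO was -1.59 (adjusted p = 5.07e-08).

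STC1, a secreted glycoprotein hormone, averaged 24.7 ± 2.43 TPM with AZD9496, 5.24 ± 0.636 TPM with fulvestrant and 25.9 ± 0.833 TPM with DMSO. Its AZD9496 minus DMSO difference was -0.07, with an interval of -0.29 to 0.14, and its fulvestrant minus DMSO difference was -2.12. CELSR2, an adhesion receptor of the cadherin superfamily, averaged 49.1 ± 5.43, 15.8 ± 1.76 and 56.4 ± 7.65 TPM in AZD9496, fulvestrant and DMSO libraries, with AZD9496 minus DMSO at -0.20 (interval -0.46 to 0.07). DSCAM-AS1, a long noncoding RNA of luminal breast cancer, averaged 101 ± 7.05 TPM with AZD9496, 27.7 ± 1.5 TPM with fulvestrant and 115 ± 6.75 TPM with DMSO. Its difference between ligands was 1.83 ± 0.07 (SE, limma, adjusted p = 4.67e-08), the smallest adjusted p among the genes named here. Its AZD9496 minus DMSO difference of -0.19 was not called on the deposited TPM (adjusted p = 0.129), but after median-of-ratios scaling it was -0.35 and called (adjusted p = 0.00469). The same scaled difference was -0.14 for SLC7A5, -0.23 for STC1 and -0.36 for CELSR2, with no call (adjusted p = 0.288, 0.146 and 0.0673). Whether reads were counted by strand is not given in the sources used here, so reads of this antisense gene and of its partner on the other strand may not be separated.

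KRT13 (GRCh38 chr17:41500981-41505705), a keratin of stratified epithelia, had the largest difference of the genes named by rule, 3.18. Its lowest, median and highest values were 27.1, 32.4 and 45.1 TPM in AZD9496 libraries, against 1.39, 2.83 and 4.70 TPM in fulvestrant libraries and 42.7, 45.6 and 52.0 TPM in DMSO libraries. AZD9496 minus DMSO was -0.47 with an interval of -1.02 to 0.08. CITED1, a coactivator that binds CBP and p300, averaged 12.8 ± 2.76 TPM with AZD9496, 0.979 ± 0.120 TPM with fulvestrant and 26.3 ± 10.3 TPM with DMSO, a difference between ligands of 2.78. LINC01016, an intergenic noncoding RNA, differed by 2.47, SERPINA3, a secreted inhibitor of serine proteases, by 1.91, and IL17RB, a receptor of interleukin-25, by 1.85. In each of these 3 the AZD9496 libraries stood below DMSO and above fulvestrant, with AZD9496 minus DMSO at -0.80, -0.67 and -0.50. RET, a receptor tyrosine kinase, averaged 6.83 ± 0.623 TPM with AZD9496, 2.33 ± 0.358 TPM with fulvestrant and 8.82 ± 0.637 TPM with DMSO (difference between ligands 1.24).

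For 2 genes AZD9496 libraries lay above vehicle while fulvestrant libraries lay below it. CXCL14, a chemokine singled out after its values were seen, averaged 239.7 ± 21.6 TPM with AZD9496, 84.1 ± 7.19 TPM with fulvestrant and 176 ± 7.19 TPM with DMSO. AZD9496 minus DMSO was 0.44 (limma, adjusted p = 0.00638) and fulvestrant minus DMSO was -1.06 (adjusted p = 2.39e-06). KRT19, a keratin of simple epithelia, had 2908, 3348 and 3666 TPM as lowest, median and highest value in AZD9496 libraries, 1666, 1888 and 2028 TPM in fulvestrant libraries and 2402, 2439 and 2743 TPM in DMSO libraries. Its AZD9496 minus DMSO difference was 0.41 (adjusted p = 0.00637) and its fulvestrant minus DMSO difference -0.43 (adjusted p = 0.0019). Beside a median of 0.15 over all genes in the AZD9496 and DMSO comparison, both were still called after median-of-ratios scaling, CXCL14 at 0.27 (adjusted p = 0.024) and KRT19 at 0.24 (adjusted p = 0.0368). IER3, an early response gene, averaged 373 ± 43.7 TPM with AZD9496, 132 ± 13.5 TPM with fulvestrant and 315 ± 24.9 TPM with DMSO, and its AZD9496 minus DMSO difference of 0.24 was not called (interval 0.02 to 0.46, adjusted p = 0.127). MIR503HG, the host transcript of a microRNA cluster, differed between ligands by 1.61, with 61.4 ± 13.7 TPM under AZD9496, 19.3 ± 3.27 TPM under fulvestrant and 41.9 ± 8.64 TPM under DMSO.

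Against DMSO, 2561 genes were called with AZD9496 (17.8% of genes tested) and 4662 with fulvestrant (32.4%), in comparisons that share the 3 DMSO libraries. With AZD9496, 1931 of the calls were higher than DMSO (75.4%), but median-of-ratios scaling shifted the median of all genes by 0.14 and left 1004 of 2373 calls higher (42.3%). With fulvestrant 2769 calls were higher (59.4%), and 2315 of 4873 (47.5%) after scaling. Of the 3 DMSO libraries, 1 carries the same index sequence as an AZD9496 library and none the same as a fulvestrant library. No pool or lane is labelled, and the part of sequencing pools in the DMSO comparisons was not tested. No index is shared between AZD9496 and fulvestrant libraries, which does not show whether they were sequenced together. The part of pools in their comparison was not tested either.

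**Figure D3:**
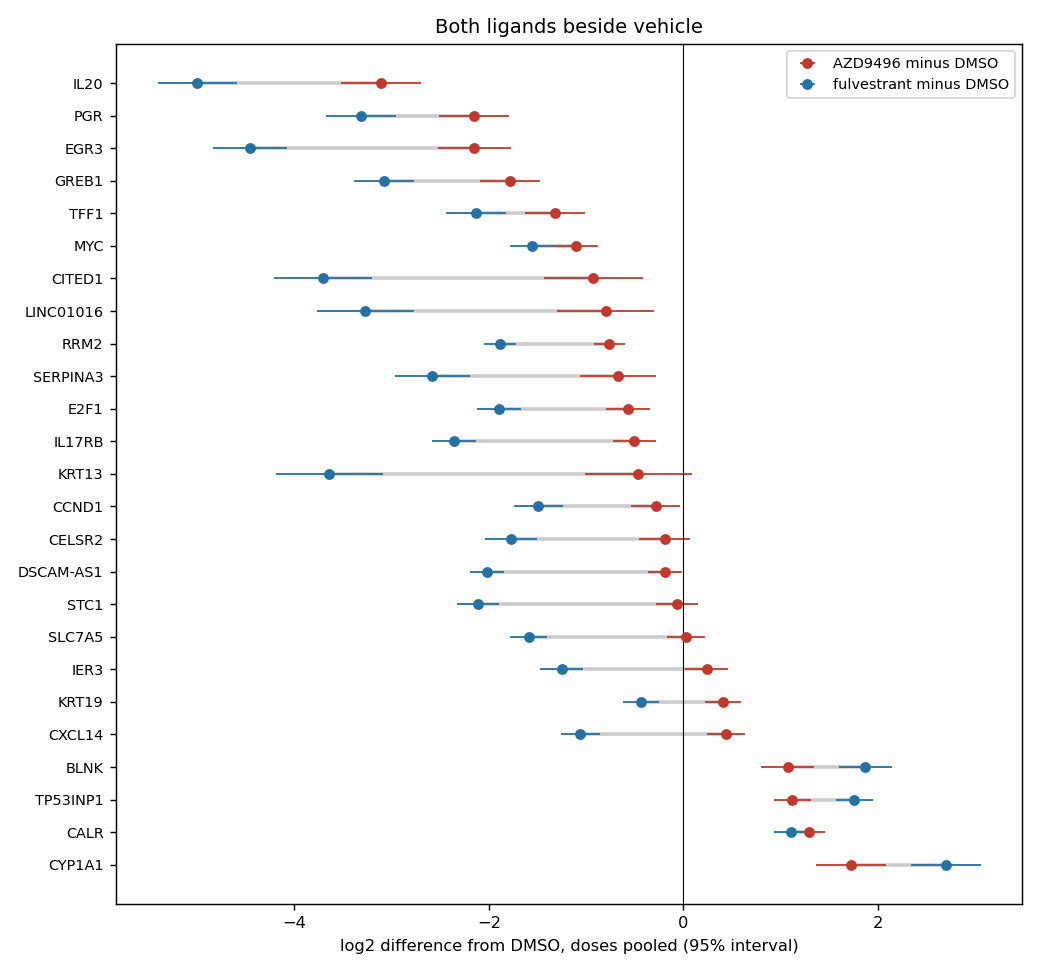
Log2 difference from DMSO (horizontal axis, doses pooled) with 95% intervals for AZD9496 (red) and fulvestrant (blue), 1 gene per row, joined by a grey line. IL20, PGR and EGR3 at the top are far below vehicle with both ligands, SLC7A5 and STC1 have intervals across 0 with AZD9496 and lie below vehicle with fulvestrant, and CYP1A1 at the bottom is above vehicle with both, at 1.72 and 2.70.

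The single estrogen-induced gene that was lower with AZD9496 was CA12, a membrane carbonic anhydrase, named here because of that count. It averaged 204 ± 27.1 TPM with AZD9496, 274 ± 28.5 TPM with fulvestrant and 218 ± 12.3 TPM with DMSO, a difference of -0.42 (limma, adjusted p = 0.00813).

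Of 17 estrogen-repressed genes tested, 8 were lower with AZD9496, 2 were higher and 7 were not called, with a median of -0.32, beside 2.14% lower over all genes tested. Median-of-ratios scaling and protein-coding genes alone each gave 10 lower and 2 higher. BLNK, an adaptor of B-cell receptor signalling, had 18.8, 22.7 and 25.5 TPM as lowest, median and highest value in AZD9496 libraries, against 34.9, 38.7 and 48.4 TPM in fulvestrant libraries, and DMSO libraries lay between 9.14 and 11.3 TPM. The 3 groups did not overlap, and the ligands differed by -0.80 ± 0.10 (SE, limma, adjusted p = 0.000459). TP53INP1, a p53-induced regulator of autophagy and cell death, averaged 64.5 ± 4.85 TPM with AZD9496, 101 ± 6.58 TPM with fulvestrant and 29.1 ± 1.94 TPM with DMSO. CCNG2, an atypical cyclin that slows the cell cycle, averaged 21.4 ± 2.78 TPM with AZD9496, 31.1 ± 2.66 TPM with fulvestrant and 11.5 ± 1.40 TPM with DMSO. The 2 members that were higher with AZD9496 were BMP7, a bone morphogenetic protein, at 0.63, and IGFBP5, which binds insulin-like growth factors, at 0.35. Unlike BLNK, TP53INP1 and CCNG2, these 2 were not above vehicle with fulvestrant. After median-of-ratios scaling fulvestrant minus DMSO was -0.43 for each (limma, adjusted p = 0.0417 and 0.000846). AZD9496 minus DMSO was 0.13 and -0.15, with no call, so both went against their list label in these cells. IGFBP5 missed the threshold without the replicates numbered 1 of both AZD9496 doses (adjusted p = 0.0592).

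Cyclin D1 and the E2F factors E2F1 and E2F2 were higher with AZD9496. CCND1, which encodes cyclin D1, the partner of CDK4 and CDK6, had 199, 214 and 235 TPM as lowest, median and highest value in AZD9496 libraries, against 75.2, 95.5 and 109.6 TPM in fulvestrant libraries and 231, 260.4 and 309 TPM in DMSO libraries. The ligands differed by 1.21 ± 0.09 (SE, limma, adjusted p = 4.98e-06), and AZD9496 minus DMSO was -0.29 with an interval of -0.54 to -0.04 (adjusted p = 0.106, and -0.45 with adjusted p = 0.0122 after median-of-ratios scaling). Of 24 genes of G1 control tested, 9 were higher with AZD9496 and none was lower, with a median of 0.40, beside 7.42% higher and 2.14% lower over all genes tested. Median-of-ratios scaling left 7 higher, and protein-coding genes alone 7 higher and 1 lower. E2F1, an activator of S-phase genes, averaged 14.7 ± 1.66 TPM with AZD9496, 5.23 ± 0.458 TPM with fulvestrant and 22.1 ± 0.0182 TPM with DMSO. E2F2, a second activator, averaged 10.3 ± 2.29 TPM with AZD9496, 2.98 ± 1.37 TPM with fulvestrant and 15.3 ± 5.20 TPM with DMSO. CDKN1A, the p21 inhibitor of cyclin-dependent kinases, was also higher with AZD9496, by 0.67, at 9.94 ± 1.33 TPM against 5.91 ± 1.28 TPM with fulvestrant.

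The promoters of E2F1 and E2F2 are shown because these 2 genes had the largest differences among the named genes that hold an E2F site in the 250 bases before their start, and because E2F factors act on such sites. Sequences are from RefSeq on build GRCh38.p14, both genes lie on the minus strand, and capitals mark the match to TTTGGCGC, which ends 35 bases before the start of E2F2 (chr1:23531234-23531483) and 13 bases before that of E2F1 (chr20:33686386-33686635).
E2F2: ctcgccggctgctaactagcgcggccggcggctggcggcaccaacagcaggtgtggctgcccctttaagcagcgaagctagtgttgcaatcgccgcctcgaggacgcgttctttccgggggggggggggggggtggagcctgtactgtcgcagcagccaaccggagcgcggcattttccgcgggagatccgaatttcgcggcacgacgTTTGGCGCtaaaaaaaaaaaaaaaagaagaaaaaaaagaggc
E2F1: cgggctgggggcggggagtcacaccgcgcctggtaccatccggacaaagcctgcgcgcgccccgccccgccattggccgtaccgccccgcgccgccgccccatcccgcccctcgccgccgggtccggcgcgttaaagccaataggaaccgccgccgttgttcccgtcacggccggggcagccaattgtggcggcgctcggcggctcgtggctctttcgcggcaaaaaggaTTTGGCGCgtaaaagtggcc

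TTTCGCGC or TTTGGCGC, on either strand, was found in 0.996% of the 27305 promoters of the RefSeq table and in 1.64% of the 9170 tested genes with a promoter there. Among called genes with a promoter, 21 of 754 higher with AZD9496 (2.79%) and 0 of 161 lower held it. Among genes of DNA replication it was found in 6 of 34 promoters (17.6%) and among genes of G1 control in 4 of 18. Of these 10 genes 7 were higher with AZD9496, namely E2F1, E2F2, CDC25A, DTL, MCM6, MCM7 and POLA2, whereas POLA1, POLE and RBL1 were not called, at -0.13, 0.34 and 0.43. RBL1 was called with all 39 libraries in the fit (adjusted p = 0.039). Over the whole lists, with or without a site, 31 of 41 genes of DNA replication and 9 of 24 of G1 control were higher. Whether members with a site differ from the rest of their lists was not tested. The palindromic estrogen response element, GGTCA then any 3 bases then TGACC, was found in 0.0439% of all promoters and in none of a called gene. A match is a description of these letters in this window.

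Of 41 genes of DNA replication tested, 31 were higher with AZD9496 and none was lower, with a median of 0.63, beside 7.42% higher and 2.14% lower over all genes tested. Median-of-ratios scaling and protein-coding genes alone each left 29 higher. The mean of log2(TPM + 1) over the list was 4.03 in AZD9496 libraries, 3.34 in fulvestrant libraries and 4.69 in DMSO libraries. RRM2, the regulated subunit of ribonucleotide reductase, had 86.2, 97.9 and 101 TPM as lowest, median and highest value in AZD9496 libraries, against 37.5, 43.7 and 47.8 TPM in fulvestrant libraries and 158, 159 and 172 TPM in DMSO libraries. The 3 groups did not overlap, and the ligands differed by 1.13 ± 0.06 (SE, limma, adjusted p = 7.06e-07). UHRF1, which recruits the maintenance DNA methyltransferase to new strands, differed by 1.27, FEN1, the flap endonuclease, by 1.05, and MCM2, a subunit of the replicative helicase, by 0.98. Of 26 genes of nucleotide synthesis 6 were higher and none was lower (5 and 1 with protein-coding genes alone), among them thymidylate synthase, TYMS, at 0.77, and thymidine kinase, TK1, at 0.61. RRM2 is also on the list of nucleotide synthesis.

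Histone genes, whose transcripts are made in S phase, were higher with AZD9496 in 14 of 17 tested list members and lower in none, with a median of 0.84. Over all genes tested 7.42% were higher and 2.14% lower. HIST1H1B, a linker histone, averaged 187 ± 16.8 TPM with AZD9496, 60.8 ± 14.3 TPM with fulvestrant and 375 ± 9.04 TPM with DMSO. HIST1H2AL, which is not on the list, and HIST1H2AH, both of the H2A family, differed by 1.68 and 1.63, and HIST2H2AC, also an H2A gene, by 0.90. Histone genes share near-identical sequence, so how reads were divided among copies is uncertain.

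Genes of mitosis had a lower median difference than these lists, 0.33. Of 36 tested, 14 were higher with AZD9496 and none was lower, and protein-coding genes alone left 7. Over all genes tested 7.42% were higher and 2.14% lower. FOXM1, the factor that drives mitotic genes, averaged 84.2 ± 5.79 TPM with AZD9496, 54.7 ± 5.04 TPM with fulvestrant and 97.2 TPM with DMSO, a difference of 0.62. INCENP, of the chromosomal passenger complex, differed by 0.67 and SPC25, of the kinetochore, by 0.72. MKI67, the proliferation antigen Ki-67, averaged 51.2 ± 5.91 TPM with AZD9496, 40.0 ± 4.16 TPM with fulvestrant and 56.1 ± 3.27 TPM with DMSO, and the libraries of the ligands overlapped. Its difference of 0.35 was called (limma, adjusted p = 0.0286), but leaving out single libraries ended the call in 7 of 12 cases, with adjusted p up to 0.0708, as did protein-coding genes alone (0.0624) and 3 other settings.

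**Figure D4:**
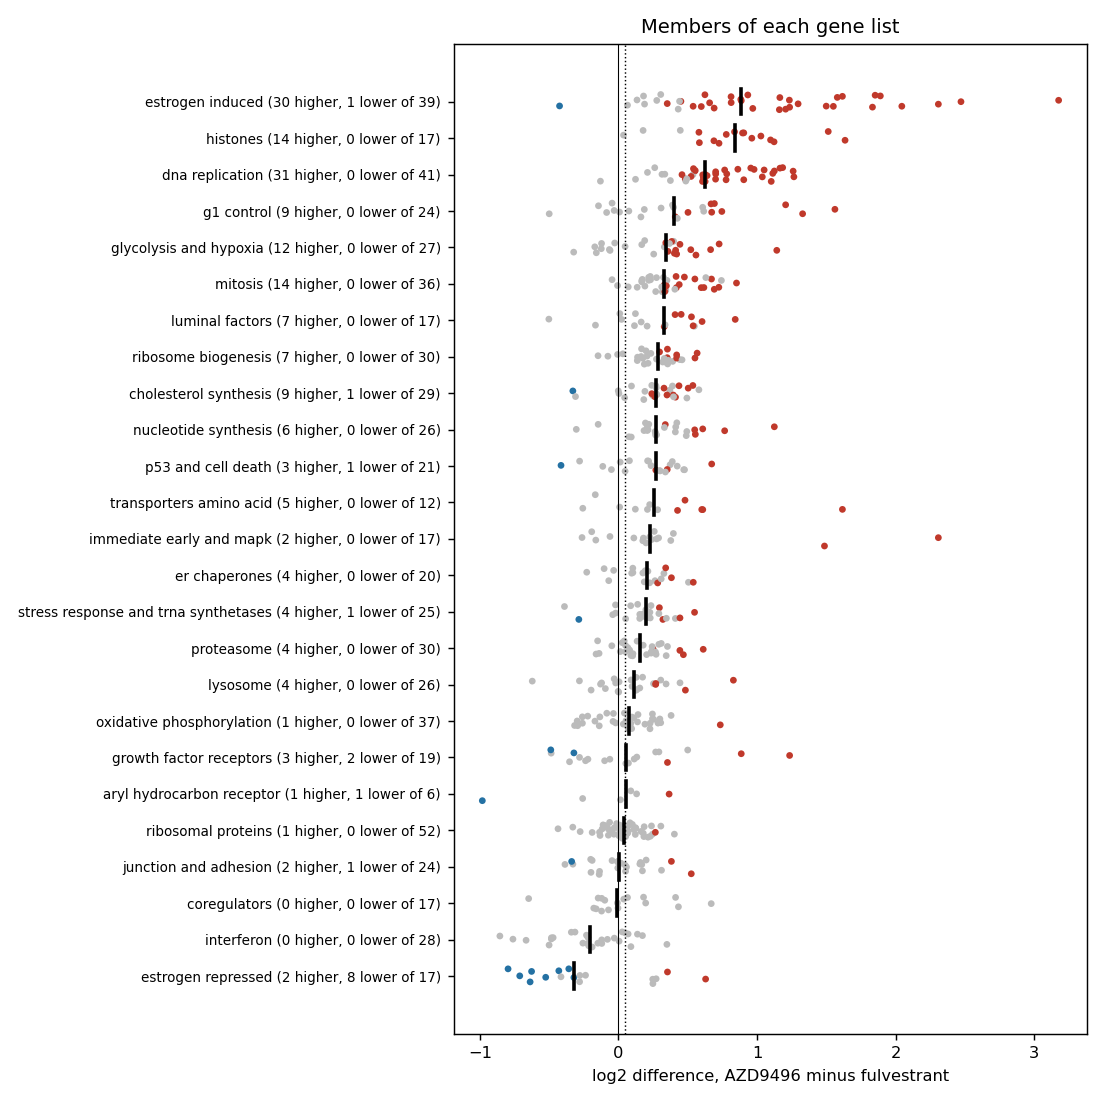
Log2 difference between AZD9496 and fulvestrant (horizontal axis, doses pooled) of each tested member of 25 gene lists, 1 list per row; red points were called higher, blue points called lower and grey points not called, black bars are list medians, and the dotted line is the median of all genes tested, 0.05. The medians of the estrogen-induced, histone and DNA replication lists lie furthest to the right and that of the estrogen-repressed list furthest to the left.

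Luminal identity factors and keratins were higher or not called. Of 17 luminal genes tested 7 were higher with AZD9496 and none was lower, with a median of 0.33, beside 7.42% higher and 2.14% lower over all genes tested. With protein-coding genes alone 3 of the 17 were higher and 1 lower. KRT18 averaged 973 ± 115 TPM with AZD9496 and 672 ± 51.7 TPM with fulvestrant (difference 0.53), and its partner keratin KRT8 averaged 1598 ± 363 and 1034 ± 118 TPM (difference 0.60, libraries overlapping). All 8 markers of luminal epithelium were present in all 12 libraries, at 53.5 TPM or more. Of 10 basal and mesenchymal markers in the table, FN1 alone was tested, at 45.1 ± 6.87 TPM with AZD9496 and 33.7 ± 6.27 TPM with fulvestrant (difference 0.41, adjusted p = 0.0572, and called without fulvestrant 300 nM replicate 2 or without AZD9496 30 nM replicate 1, with adjusted p down to 0.0135). Of 14 markers of stroma, endothelium and immune cells, only COL1A1 and CD68 reached the test, and CD68 was higher with AZD9496 by 0.60, while PTPRC was at 0 in every fulvestrant library and at most 0.0766 TPM with AZD9496.

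Glucose and amino acid uptake genes were among those higher with AZD9496. SLC2A1, the glucose transporter GLUT1, had 112, 124 and 149 TPM as lowest, median and highest value in AZD9496 libraries, against 48.7, 57.9 and 62.9 TPM in fulvestrant libraries and 149, 163 and 172 TPM in DMSO libraries. The libraries of the ligands did not overlap, and the difference was 1.14 ± 0.09 (SE, limma, adjusted p = 6.02e-06). Of 27 genes of glycolysis and hypoxia 12 were higher and none was lower, beside 7.42% higher and 2.14% lower over all genes tested. The list median was 0.34, and the higher members included aldolase A, ALDOA, at 0.67, lactate dehydrogenase A, LDHA, at 0.56, and triose phosphate isomerase, TPI1, at 0.44. After median-of-ratios scaling, and likewise with protein-coding genes alone, 10 were higher and 1 was lower, and with no expression filter ALDOA was not called (adjusted p = 0.0831). Of 12 amino acid transporters 5 were higher and none was lower, but 5 and 1 after median-of-ratios scaling and 4 and 1 with protein-coding genes alone. Besides SLC7A5 these were its heavy chain SLC3A2 at 0.43, the cationic carrier SLC7A1 at 0.48, the neutral carrier SLC43A2 at 0.60 and the glutamine carrier SLC1A5 at 0.61, and leaving out single libraries ended the calls of SLC43A2 and SLC1A5 in 3 and 7 of 12 cases (adjusted p up to 0.0627 and 0.0814).

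The number of calls in cholesterol synthesis, the endoplasmic reticulum and the stress response depended on the scale. Of 29 cholesterol genes 9 were higher and 1 lower, beside 7.42% higher and 2.14% lower over all genes tested, and 3 were higher and 1 lower with protein-coding genes alone. EBP and DHCR7, enzymes of the last steps, were higher by 0.54 and 0.50, SQLE, squalene epoxidase, was higher by 0.44, and INSIG1, which holds back the sterol response, was lower (-0.33). Of 20 chaperones of the endoplasmic reticulum 4 were higher, HSPA5, MANF, PDIA4 and SDF2L1, by 0.28 to 0.54, and 1 was higher with protein-coding genes alone. CALR, the calcium-binding chaperone calreticulin, had 665, 753 and 798 TPM as lowest, median and highest value in AZD9496 libraries, 616, 651 and 669 TPM in fulvestrant libraries and 278, 308 and 322 TPM in DMSO libraries. The ligands overlapped for CALR and differed by 0.19 (interval 0.05 to 0.32, limma, adjusted p = 0.0845), while each ligand lay above DMSO, by 1.29 and 1.10 for AZD9496 and fulvestrant. Of 25 genes of the stress response and tRNA charging 4 were higher, VARS, ATF5, AARS and MARS, by 0.30 to 0.55, and DDIT4, an inhibitor of mTORC1, was lower (-0.29). Median-of-ratios scaling gave 3 higher and 1 lower, and protein-coding genes alone 2 and 1. MARS was not called on these 2 scales (limma, adjusted p = 0.0645 and 0.138) or with all 39 libraries in the fit (adjusted p = 0.102). Leaving out single libraries ended the calls of HSPA5, PDIA4, MARS and DDIT4 in 3, 5, 3 and 2 of 12 cases, with adjusted p up to 0.0621, and without AZD9496 300 nM replicate 3 CALR was called (adjusted p = 0.0426).

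CYP1A1 (GRCh38 chr15:74719542-74725610), a detoxifying enzyme that the aryl hydrocarbon receptor induces, was above vehicle with both ligands and lower with AZD9496. Its lowest, median and highest values were 2.17, 3.12 and 5.02 TPM in AZD9496 libraries, against 6.12, 7.15 and 9.57 TPM in fulvestrant libraries and 0.229, 0.297 and 0.423 TPM in DMSO libraries. The 3 groups did not overlap, and the ligands differed by -0.98 ± 0.15 (SE, limma, adjusted p = 0.00139). CYP1B1, another target of that receptor, differed the other way, by 0.37 (adjusted p = 0.045), a call that was lost after median-of-ratios scaling (adjusted p = 0.0516) and in 9 of 12 cases without a single library (adjusted p up to 0.1). The remaining 4 of the 6 genes tested on that list were not called, beside 7.42% higher and 2.14% lower over all genes tested. After median-of-ratios scaling, and likewise with protein-coding genes alone, 2 of the 6 were lower and none was higher. Lower calls over all genes tested were 543 of 14375 and 642 of 11100 on these 2 scales, beside 307 of 14375 on the deposited TPM.

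Of 28 interferon-stimulated genes none was called, at a median of -0.20, and with protein-coding genes alone 3 were lower and none was higher. The mean of log2(TPM + 1) over that list lay between 3.73 and 3.96 in AZD9496 libraries and between 3.75 and 4.33 in fulvestrant libraries. BST2, which tethers viruses, differed by 0.35 with an interval of -0.09 to 0.79, and HLA-C, a class I antigen, by -0.12 with an interval of -0.58 to 0.34. Of 52 ribosomal protein genes 1, RPS12, was higher by 0.27, and none was after median-of-ratios scaling. Of 37 genes of oxidative phosphorylation 1, NDUFS6, a subunit of complex I, was higher by 0.74. Of 30 genes of ribosome production 7 were higher, among them NCL, nucleolin, at 0.42 and RRS1 at 0.55. Of 30 proteasome genes 4 were higher, PSMA7, PSMC2, PSMC3 and PSMD3, by 0.25 to 0.61, and of 26 lysosome genes 4, NPC2, LAMP1, NPC1 and GLA, by 0.27 to 0.83, beside 7.42% higher over all genes tested. With protein-coding genes alone 2 proteasome genes were higher and 1 lower, and 1 lysosome gene was higher and 1 lower. On that scale 1 gene of oxidative phosphorylation was higher and 2 lower, and 2 ribosomal protein genes were lower. Over all genes tested on that scale, 543 of 11100 were higher and 642 lower. Among 21 genes of p53 signalling and cell death, BCL2 and MCL1, which protect mitochondria, and CDKN1A were higher, and SESN1, a stress-induced sestrin, was lower, at 0.35, 0.27, 0.67 and -0.41, and with protein-coding genes alone 1 was higher and 1 lower. Leaving out single libraries ended the calls of SESN1 in 10 of 12 cases, of RPS12, PSMA7, LAMP1 and MCL1 in 9, of NPC2 in 8 and of PSMC2 in 4, with adjusted p up to 0.104. After median-of-ratios scaling RPS12, PSMA7, NPC2 and MCL1 were not called (adjusted p = 0.121, 0.0852, 0.0775 and 0.117).

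Growth factor pathway genes split, and some are also on the estrogen lists, among them IGFBP4, IGFBP5 and ERBB2. Of 19 tested, RET, IGFBP4 and IGFBP5 were higher with AZD9496, at 1.24, 0.89 and 0.35, and PIK3IP1, an inhibitor of PI3 kinase, and ERBB2, the HER2 receptor, were lower, at -0.49 and -0.32, while median-of-ratios scaling gave 3 higher and 3 lower and protein-coding genes alone 3 higher and 4 lower. ERBB2 averaged 50.8 ± 3.23 TPM with AZD9496, 64.0 ± 7.24 TPM with fulvestrant and 26.0 TPM with DMSO, and its call was lost in 8 of 12 cases without a single library (adjusted p up to 0.0734). Of 24 junction genes 2 were higher, TJP3 at 0.53 and CLDN3 at 0.38, and 1 was lower, beside 7.42% and 2.14% over all genes tested. The balance turned round to 1 higher and 3 lower after median-of-ratios scaling, and to 1 and 4 of 23 with protein-coding genes alone. Over all genes tested the balance also moved, to 780 higher and 543 lower of 14375 and to 543 higher and 642 lower of 11100. The call of CLDN3 was lost in 10 of 12 cases without a single library (adjusted p up to 0.113).

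The genes with the largest decreases were mostly low in level or poorly annotated. C10ORF10, a target of FOXO factors, had 3.32, 3.84 and 5.37 TPM as lowest, median and highest value in AZD9496 libraries, against 8.85, 10.8 and 12.4 TPM in fulvestrant libraries, and DMSO libraries lay between 0.952 and 2.13 TPM (difference between ligands -1.25, limma, adjusted p = 2.71e-05). SLC22A4, the ergothioneine transporter, averaged 3.63 ± 0.626 TPM with AZD9496, 8.97 ± 2.06 TPM with fulvestrant and 1.97 ± 0.278 TPM with DMSO. MBOAT2, a lysophospholipid acyltransferase, averaged 40.6 ± 7.39 TPM with AZD9496, 76.0 ± 11.5 TPM with fulvestrant and 36.0 ± 3.43 TPM with DMSO, and its AZD9496 minus DMSO difference was 0.15 with an interval of -0.18 to 0.49. MYSM1, a histone H2A deubiquitinase, averaged 7.33 ± 2.12 TPM with AZD9496, 15.8 ± 1.5 TPM with fulvestrant and 10.4 ± 3.57 TPM with DMSO. AC073284.4, without annotation here, had the largest named decrease, -2.39, at 0.890 ± 0.785 TPM with AZD9496 and 8.94 ± 3.50 TPM with fulvestrant. RIIAD1 differed by -1.21, and leaving out single libraries ended its call in 6 of 12 cases (adjusted p up to 0.0762).

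Copies of mitochondrial genes in the nuclear genome also appeared among the decreases. A set of 21 such pseudogenes, chosen after seeing the values, held 8 that were lower with AZD9496 and none that was higher. Over all genes tested 2.14% were lower. The median of the set was -0.50, and its members ran between -1.29 and 1.07, but neither end was called. The lowest, MTND4LP1, had a median of 0 TPM in AZD9496 libraries, and the highest, MTCO1P3, was at 0 in every fulvestrant library. MTND1P23 (GRCh38 chr1:629062-629433) averaged 51.8 ± 15.4 TPM with AZD9496, 106 ± 11.3 TPM with fulvestrant and 40.9 ± 8.45 TPM with DMSO. The share of TPM in the whole set was 2.24 to 4.41% in AZD9496 libraries, 5.03 to 7.004% in fulvestrant libraries and 2.48 to 2.99% in DMSO libraries. Most of this share was 1 member, MTATP6P1, at 30046 ± 7540 TPM with AZD9496, 50980.5 ± 6574 TPM with fulvestrant and 22473 ± 2468 TPM with DMSO. These sequences resemble the mitochondrial genome, so the origin of the reads is uncertain.

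Fewer genes were called at single doses, where each ligand has 3 libraries. At 30 nM 233 genes were called (1.62% of genes tested), 199 higher and 34 lower, and at 300 nM 347 were called (2.41%), 255 higher and 92 lower. Called at both doses in the same direction were 169 genes. No gene was called for a change of the difference with dose (0% of 14375 genes, limma), while 545 passed an unadjusted p of 0.05. SLC7A5 differed by 1.61 at 30 nM and 1.62 at 300 nM, and the change with dose had an interval of -0.32 to 0.35. PGR differed by 1.01 at 30 nM and 1.32 at 300 nM (change 0.31, interval -0.25 to 0.87), and TFF1 by 0.79 and 0.84 (change 0.05, interval -0.40 to 0.50). CYP1A1 differed by -0.79 at 30 nM, where it was not called (adjusted p = 0.0849), and by -1.18 at 300 nM (adjusted p = 0.0115), and the change of -0.39 had an interval of -1.01 to 0.24.

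**Figure D5:**
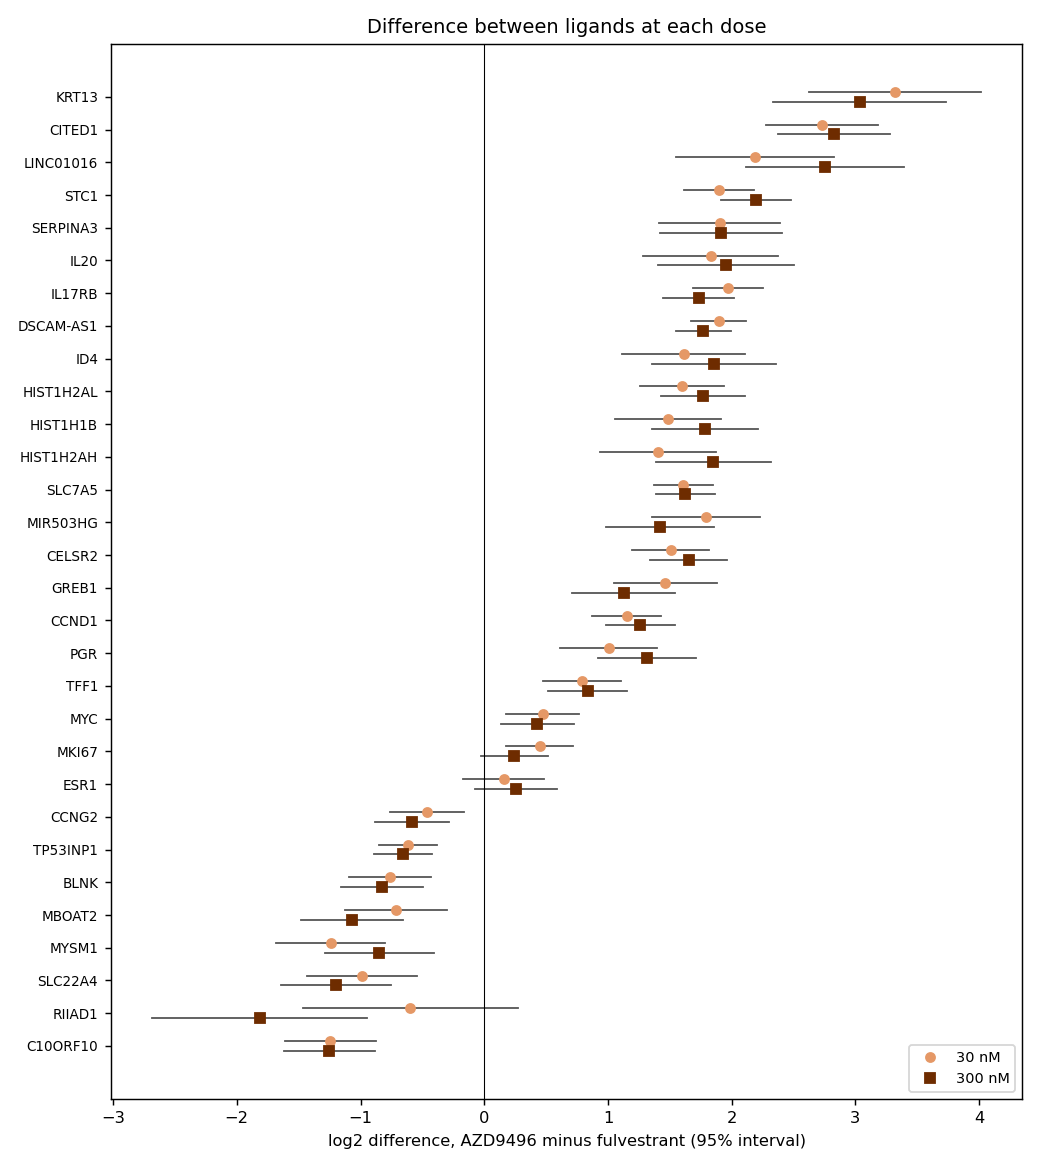
Log2 difference, AZD9496 minus fulvestrant (horizontal axis), with 95% intervals at 30 nM (orange circles) and 300 nM (brown squares), 1 gene per row. The intervals at the 2 doses overlap in every row, with KRT13 at 3.32 and 3.03 at the top and C10ORF10 at -1.24 and -1.25 at the bottom.

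Across all genes tested, the 95% interval of the difference lay between -1 and 1 for 12754 of the 14375 genes, and between -0.5 and 0.5 for 6961.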

How the data were processed

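RNA-seq of HCC1428-LTED cells was read from 1 deposited table of TPM, 46706 gene symbols by 39 libraries. The submitters' processing notes name the aligner STAR and the build GRCh38, and per the labels' protocols libraries were stranded NuGEN preparations of total RNA. How reads were counted, with which annotation and tool versions, is not given in the sources used here. Each library of deposited TPM sums to the same total, so depth is unknown and no counting interval can be given. Genes averaging 1 TPM or more across all 39 libraries were kept (14404, of which 14375 were above 0 in some AZD9496 or fulvestrant library), and values became log2(TPM + 1). limma 3.58.1 in R 4.3.3 (empirical Bayes with an intensity trend) fitted ligand with dose as a block on the 12 libraries; single doses, the change with dose and the DMSO comparisons used group means. P-values were adjusted by Benjamini-Hochberg over all genes. The procedure was tested on simulated data. Alternatives were median-of-ratios scaling, a pseudocount of 0.1, no filter and a filter at 5 TPM, all 39 libraries in the fit, no dose term, each library left out, and, chosen after seeing the data, protein-coding genes alone and no AZD9496 replicates numbered 1.

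Named genes were 9 always read, up to 15 in each direction with the largest difference among genes called with and without scaling, at 5 TPM or more in the higher ligand and with no overlap between libraries, and up to 4 called members per list with the smallest p; all called members of a list were named where there were 5 or fewer, and the genes said above to be singled out fall outside this rule. Some genes that the rule names are not reported here. The 28 gene lists and the genes compared were chosen with earlier results of these data known. Some genes are on more than 1 list, so list counts are not independent of each other. Replicate numbers follow sample order and pair nothing. Replicates of 1 group correlated at 0.955 to 0.976 (Pearson, across genes) with no identical libraries. Gene types and positions came from GENCODE 29, matched by symbol for 84.0% of tested genes, and promoters from RefSeq on GRCh38.p14.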

Additional observations from a re-analysis of the deposited data

Results flagged for a closer look

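In 234 groups of 6 libraries of 1 ligand, both doses together, 9 held a library far from the other 5 by Dixon's test, and chance flags about 1 in 20 groups. FOXM1 was lowest in fulvestrant 300 nM replicate 2 (44.8 TPM, next 55.1), LAMP1 was lowest in the same library (54.2 TPM, next 62.0), and IGFBP4 was highest in fulvestrant 300 nM replicate 1 (48.4 TPM, next 41.2). AZD9496 300 nM replicate 3 was lowest for CXCL14 (198.6 TPM, next 239), RRS1 (53.5 TPM, next 69.2) and SLC7A1 (9.98 TPM, next 10.8). PSMC2 was highest in AZD9496 300 nM replicate 2 (80.6 TPM, next 73.4), and POLE in AZD9496 30 nM replicate 3 (30.9 TPM, next 22.04). The unannotated transcript at the top of the plot of differences was also highest in AZD9496 30 nM replicate 3 (96.5 TPM, next 31.3, lowest 0). FOXM1, IGFBP4, CXCL14, RRS1 and SLC7A1 were called under every leave-out.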

How the results depend on the processing

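The deposited values give no depth, so low genes cannot be weighed by counts. Of 113 genes named or described here 104 were called, 86 of these under every leave-out and 80 under every setting in which they were tested, and none changed sign. Leaving out single libraries gave 902 to 1385 calls with doses pooled, 112 to 168 at 30 nM, 146 to 407 at 300 nM, 0 to 3 for the change with dose, 1198 to 2572 for AZD9496 against DMSO and 3163 to 4825 for fulvestrant against DMSO. The pooled count moved by over 1.5 times without fulvestrant 30 nM replicate 1 (910) or AZD9496 300 nM replicate 2 (902). The 30 nM count did so without fulvestrant replicate 1 (112), 2 (140) or 3 (124) or AZD9496 replicate 2 (126) or 3 (125), and the 300 nM count without fulvestrant replicate 1 (179) or 2 (165) or AZD9496 replicate 1 (203) or 2 (146). The AZD9496 count against DMSO did so without DMSO replicate 2 (1198) or 3 (1389). With no expression filter 220 genes were called at 300 nM and 1706 for AZD9496 against DMSO, where 34596 and 35442 genes were tested. Without both AZD9496 replicates numbered 1, which list 26756 and 26440 genes above 0 against 21570 to 24526 in the other AZD9496 libraries, 1092 genes were called with doses pooled, 805 of them higher. With protein-coding genes alone MANF, AARS, NPC1 and BCL2, otherwise called under every leave-out, missed the threshold (adjusted p = 0.0612, 0.0731, 0.0633 and 0.0644). The causes were not tested. No paired analysis was possible because the labels give no replicate numbers.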
